A study of Sus scrofa with 36 samples.

Results

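The G1 cyclins, the kinases they switch on and the proteins that hold them back were followed by 14 microarray probes in the thyroid glands of 36 pigs. The group was set as 10 genes: the D cyclins CCND1, CCND2 and CCND3, the E cyclins CCNE1 and CCNE2, the kinases CDK2, CDK4 and CDK6, the inhibitor CDKN1B and the retinoblastoma gene RB1. A probe was taken when the scanner files name it by the gene symbol or hold the symbol in brackets in its description, which gave 14 of the 60305 probes, for 8 of the 10 genes. CCND3 and CDK4 had 3 probes each, CDK6 and CDKN1B had 2 each, and CCND1, CCND2, CCNE1 and CDK2 had 1 each, whereas CCNE2 and RB1 are not analysed here because the rule found no probe for them. All 14 probes were above background on all 36 arrays and were tested, among 46222 probes tested in all.

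The glands came from castrated male pigs of 3 breeds, Creole (CR), Large White (LW) and their cross (F1), with 6 pigs per breed kept at 24 °C and 6 labelled as kept at 30 °C, and 1 pig per array. The protocol text instead gives 32 °C, held for 5 days. The cool pigs were killed ahead of that period and the hot pigs at its end, and an effect of temperature cannot be told apart from one of the killing date. The labels name neither litter nor pen, so pigs of a breed were treated as independent, and breed cannot be told apart from the families that stand for it. The thyroid markers TG, TSHR, NKX2-1, FOXE1, SLC5A5, DUOX2 and IYD were above background, SLC26A4 and DIO1 had probes that were not, and no named probe was found for PAX8. The share of probes well above background ran from 72.8% to 80.3% over the arrays, 0 spots were saturated, and the number of arrays limits the precision. A gland is a mixture, so fewer cells of a type and less RNA per cell cannot be told apart.

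D cyclins pair with CDK4 or CDK6 and E cyclins pair with CDK2. The paired kinases phosphorylate the retinoblastoma protein, which releases E2F factors and lets a cell enter S phase, where the genes for DNA replication are switched on. CDKN1B, also called p27, binds cyclin and kinase pairs and holds quiescent cells in G1, and in the thyroid this brake and the D cyclins respond to thyrotropin and to growth factors. Mitotic kinases such as CDK1 act later, after DNA replication.

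The probes do not read these genes equally well, and the sequences below, written 5′ to 3′ as the scanner files give them, show where. The CCND1 probe is shown first because the capitals mark 27 letters that it shares with the opposite strand of the second probe. The files name that second probe SPIRE2, but give it an accession carried by 6 probes, of which 4 are described as 18S ribosomal RNA.
CCND1 probe O12691: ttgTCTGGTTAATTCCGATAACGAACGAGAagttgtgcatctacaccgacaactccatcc
SPIRE2 probe A_72_P250887: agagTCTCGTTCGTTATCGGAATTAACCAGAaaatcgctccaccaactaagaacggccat

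The 3 CCND3 probes are shown because only A_72_P234497 was called between the breeds. Of the main probe O11894 (the main probe of a gene is its tested probe with the highest mean) only the last 30 letters are printed, with AATAAA, the usual polyadenylation signal, in capitals.
CCND3 probe O11894, letters 31 to 60: catgctatgttAATAAAaattctggaataa
CCND3 probe A_72_P234497: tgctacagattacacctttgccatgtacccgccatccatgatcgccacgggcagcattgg
CCND3 probe A_72_P582587: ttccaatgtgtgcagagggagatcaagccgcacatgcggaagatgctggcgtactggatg

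AATAAA stood in 1 of the 14 probes, against 10.3% of all probes on the array, searched on the probe strand. The CDKN1B probes are shown because they are 1 letter apart: O7836 differs from A_72_P178166 by A14T, counted from the 5′ end of the 60 letters, with the differing letter in capitals below.
CDKN1B probe O7836, letters 1 to 30: gttttttcccctcAtctgttaaataatatg
CDKN1B probe A_72_P178166, letters 1 to 30: gttttttcccctcTtctgttaaataatatg

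The single CCND2 probe carried a breed difference, and its last 30 letters were rich in A.
CCND2 probe A_72_P035456, letters 31 to 60: ttagaatgaaactttaaaacaaacaaaaaa

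A further 13 probes on the array were assigned to the same genes without being named by the rule, and they are used here only as a second reading. Whether each of them reads the same transcript was not tested. Of these, 6 carry the CDK2 gene number, 1 is described as cyclin E1, and 6 share 20 or more letters in a row with a member probe. Among the last 6, 1 has exactly the letters of CCND3 A_72_P234497 and 1 exactly those of CDKN1B A_72_P178166, so each of these sequences was printed on the array under more than 1 name. After the means of the 6 groups were taken away, the copies followed their originals over the 36 arrays with Pearson's r = 0.90 for CCND3 and 0.86 for CDKN1B. Pairs of named probes of a gene followed each other with r = 0.87 for CDKN1B, 0.89 for CDK6, 0.68 to 0.90 for CDK4 and only 0.32 to 0.67 for CCND3.

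**Figure D1:**
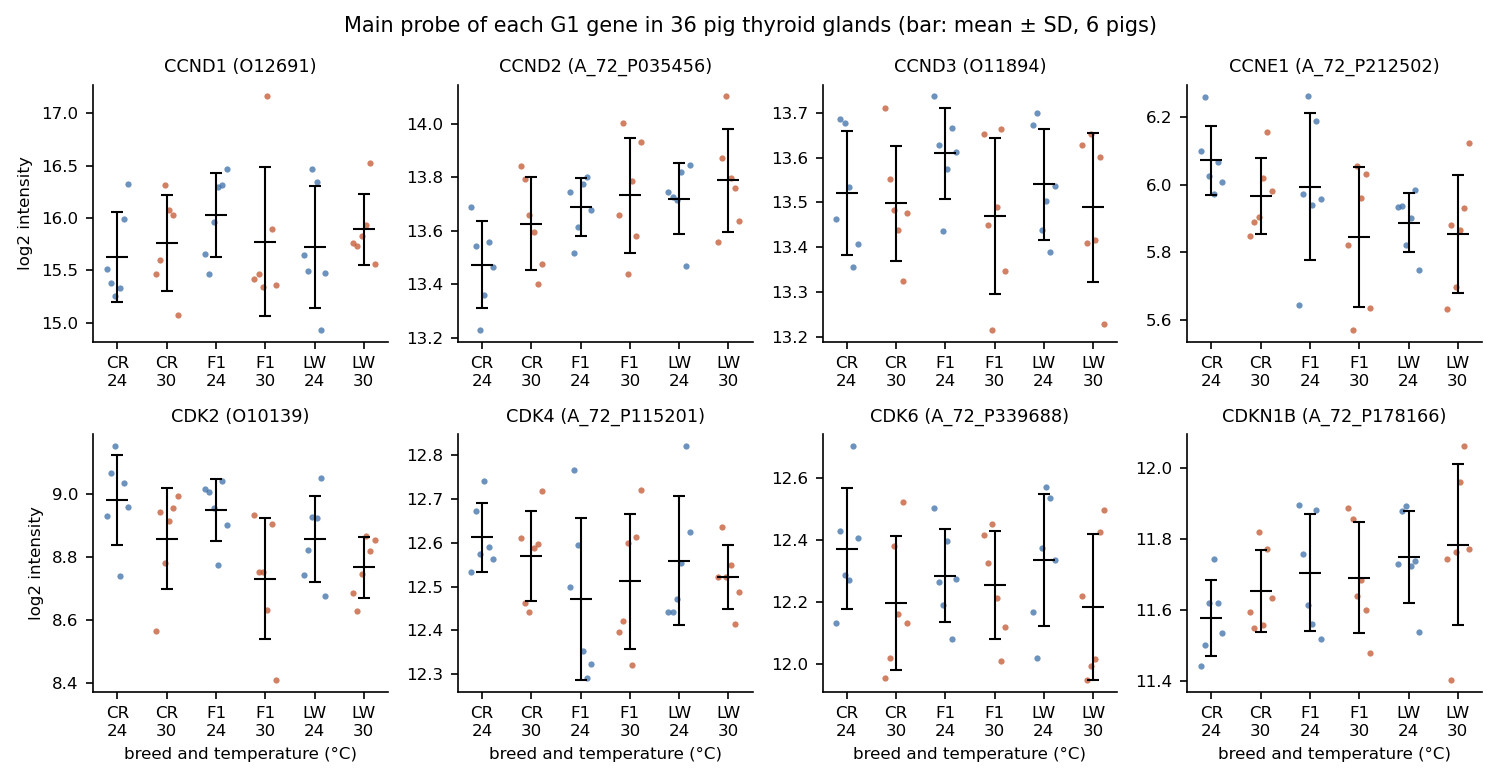
Log2 intensity (vertical axes, which differ between panels) of the main probe of each of the 8 genes in the 6 groups of breed and temperature (horizontal axes). Each point is 1 pig, blue at 24 °C and red at 30 °C, and the bar is the mean ± SD over 6 pigs. The 24 and 30 °C pigs of every gene overlap, and the CCND1 panel spans the widest range, from 14.93 to 17.16.

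The first question was whether the heat load changed these genes. No G1 cyclin, kinase or brake in the set was called at 30 °C against 24 °C. None of the 14 probes passed the test (limma, adjusted p under 0.05 over all 46222 probes), against 1.18% of all tested probes, and 1 probe, that of CDK2, had an unadjusted p under 0.05, as did 9.74% of all tested probes. The 14 differences ran from -0.14 to 0.09 on the log2 scale with a median of -0.02, against a median of 0.01 over all tested probes. Their 95% intervals lay between 0.807-fold and 1.26-fold, and a p that misses the threshold does not show that the levels were equal.

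Among the D cyclins, CCND2 had a log2 intensity at 24 °C of 13.23, 13.68 and 13.85 (lowest, median and highest of 18 pigs) and at 30 °C of 13.40, 13.71 and 14.10. The ranges overlapped, and the difference was 0.09 ± 0.05 (SE), with an adjusted p of 0.656 in limma. CCND3 read 13.36, 13.56 and 13.74 at 24 °C and 13.21, 13.48 and 13.71 at 30 °C on its main probe. The difference was -0.07 ± 0.05 (SE, adjusted p = 0.695 in limma), and the other 2 CCND3 probes gave -0.04 and 0.04. CCND1, the cyclin most often linked to growth factor signalling, read 14.93, 15.65 and 16.47 at 24 °C and 15.07, 15.74 and 17.16 at 30 °C. Its difference was 0.01 with a 95% interval from -0.31 to 0.33, the widest of the set.

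The CCND1 signal differed from slide to slide. Slide took up 70.9% of its variance within groups, against a median of 18.6% over all tested probes, and CCND1 lay at the 96.4th percentile. On slides 3 and 4 the signal lay between 15.55 and 17.16, and on slides 1, 2 and 5 between 14.93 and 15.83. Its spread within groups (SD 0.50) was above the median SD of 0.18 over all tested probes. Whether this slide pattern follows the 18S part of the probe was not tested, and the values of CCND1 are given as those of the probe. The other 7 main probes had between 7.7% and 40.9% of their variance with slide, the highest being CDK4.

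**Figure D2:**
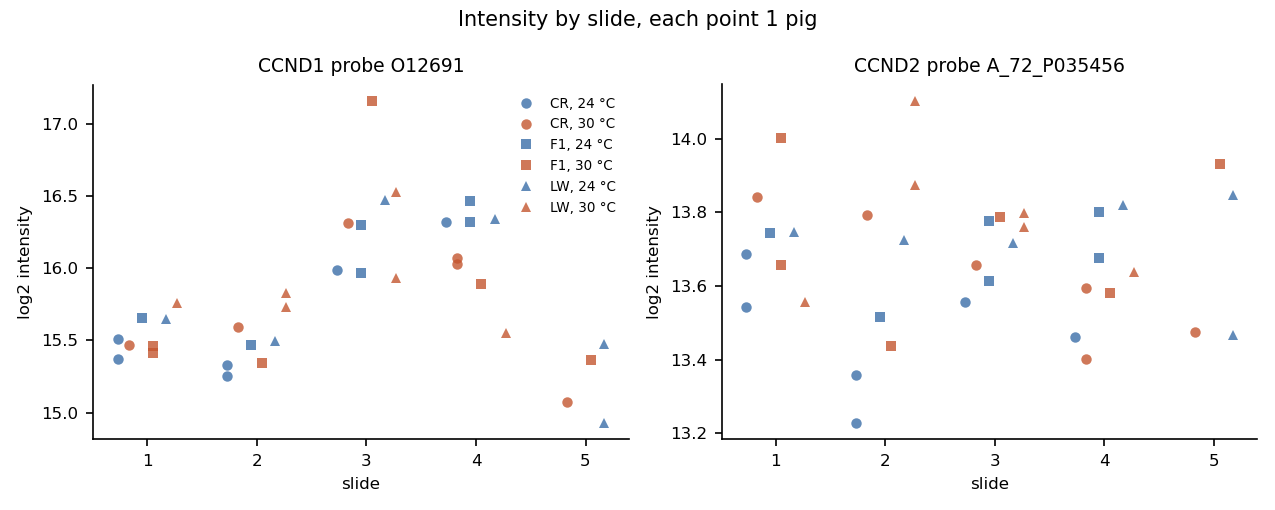
Log2 intensity (vertical axis) of the CCND1 and CCND2 probes on each of the 5 slides (horizontal axis), each point 1 pig, with breed by shape and temperature by colour; slide 5 held 4 pigs and the others 8. The CCND1 points of slides 3 and 4 sit above most of those of slides 1, 2 and 5 whatever the breed or temperature, and the CCND2 points show no such step.

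CCNE1, the cyclin that drives CDK2, was close to the floor of the array, at the 11.6th percentile of brightness. It read 5.64, 5.97 and 6.26 at 24 °C and 5.57, 5.90 and 6.16 at 30 °C, with overlapping ranges. The difference was -0.10 ± 0.05 (SE, adjusted p = 0.586 in limma). The probe described as cyclin E1 outside the rule had 0.11 ± 0.07 (SE), the opposite sign, and the 2 probes followed each other with r = 0.17 only.

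CDK2, the kinase of the G1 to S step, showed the largest difference of the set. Its probe read 8.68, 8.94 and 9.15 at 24 °C and 8.41, 8.80 and 8.99 at 30 °C. The ranges overlapped, and 2 of the 18 hot pigs lay above the 24 °C mean of their own breed. The difference was -0.14 ± 0.05 (SE), with an unadjusted p of 0.00463 and an adjusted p of 0.182 in limma. Within slides 1 to 4 the difference lay between -0.24 and -0.05. The 6 CDK2 probes outside the rule were also lower at 30 °C, by -0.08 to -0.19, and none of them was called, the lowest adjusted p being 0.0566 in limma. After the group means were taken away, those 6 probes followed the named CDK2 probe unevenly, with Pearson's r from 0.09 to 0.70. Probes of 1 gene in the same pigs are not independent of each other.

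CDK4 and CDK6, the partners of the D cyclins, were not called on any of their 5 probes. CDK4 read 12.29, 12.56 and 12.82 at 24 °C and 12.32, 12.54 and 12.72 at 30 °C, a difference of -0.01 with a 95% interval from -0.10 to 0.08, the narrowest of the main probes. The other 2 CDK4 probes each gave -0.02. CDK6 read 12.02, 12.31 and 12.71 at 24 °C and 11.95, 12.19 and 12.52 at 30 °C, a difference of -0.12 ± 0.06 (SE, adjusted p = 0.58 in limma), and its second probe gave -0.10.

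CDKN1B, the brake, was not called on either probe. It read 11.44, 11.67 and 11.90 at 24 °C and 11.40, 11.72 and 12.06 at 30 °C. The difference was 0.03 ± 0.05 (SE, adjusted p = 0.925 in limma), and the probe 1 letter away gave 0.06 ± 0.05 (SE).

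Each breed was then tested alone. None of the 14 probes was called in CR, F1 or LW taken alone by limma, against 0.387%, 0.383% and 0% of all tested probes, and 0, 2 and 0 of the 14 had an unadjusted p under 0.05, against 5.75%, 10.6% and 4.01%. CDK2 differed by -0.12 in CR, -0.22 in F1 and -0.09 in LW, each ± 0.08 (SE). The test of whether the change differed between breeds called none of the 14 probes and 0% of all tested probes, with 0 of the 14 at an unadjusted p under 0.05, against 4.67%.

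The rest of the G1 to S machinery was read from a list of 39 further genes, of which 30 were tested, by the main probe of each. Of these 30, 0 were called higher and 4 lower at 30 °C, with a median difference of -0.01, against 0.145% and 1.07% of the main probes of all 10363 named genes. The 4 were E2F8, an atypical E2F (-0.57 ± 0.08 SE), CKS2 (-0.49 ± 0.11) and CKS1B (-0.18 ± 0.04), small subunits that bind cyclin-dependent kinases, and MYC (-0.32 ± 0.08), a growth transcription factor. CKS1B, which works with SKP2 in the turnover of p27, was lower on all 4 of its probes and called on 3, whereas SKP2 itself read 0.02 ± 0.05 (SE). MYC was lower on all 4 of its probes but called on only 1. E2F8 belongs in this list by its family, and CKS1B and CKS2 also act in mitosis.

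The other inhibitors of the kinases were not called. CDKN1A, or p21, differed by -0.21 ± 0.07 (SE, adjusted p = 0.156 in limma) and CDKN2C, or p18, by -0.24 ± 0.08 (SE, adjusted p = 0.14 in limma). CDKN1C, or p57, gave 0.00 ± 0.05 (SE). RBL1 and RBL2, the relatives of RB1, gave -0.03 ± 0.05 and 0.03 ± 0.06 (SE), and E2F1 gave -0.05 ± 0.05 (SE).

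Some of the listed genes that come after the G1 to S step were called lower at 30 °C. In a list of 25 E2F-driven S phase genes, 15 were tested and 8 were called lower at 30 °C with 0 higher, at a median of -0.22. Among the main probes of all named genes 1.07% were called lower and 0.145% higher. They were RRM2 (-1.27), which makes deoxynucleotides, UHRF1 (-0.71), EZH2 (-0.45), BRCA1 (-0.38), PCNA, the sliding clamp of replication (-0.34), CHEK1 (-0.29), MCM3 (-0.22) and CDC45 (-0.22). In a list of 10 mitotic genes all 10 were tested and 7 were lower with 0 higher, at a median of -0.60: CDK1 (-1.45), TOP2A (-1.40), CCNB1 (-1.18), CDC20 (-0.90), CCNB2 (-0.73), PLK1 (-0.48) and AURKA (-0.35). Both lists were drawn up with earlier results of these arrays known, so their counts are no independent test of these groups of genes. Markers of other cell types were read as well. By main probes the red cell gene HBB was the only one called with temperature, and it was lower, and 1 of 8 probes of the smooth muscle gene ACTA2 was called as well, with all 8 below 0. The summed intensity of the 3 tested red cell markers ran from 907 to 3636 units at 24 °C and from 540 to 2131 at 30 °C. The differences of all 3 tested neutrophil markers (median -0.44), all 6 adipocyte markers (median -0.32) and 5 of 6 fibroblast markers (median -0.28, COL1A1 -0.54) lay below 0. Of them 3, 3 and 2 had an unadjusted p under 0.05 in limma, as did 9.74% of all tested probes. All 6 myeloid, all 6 skeletal muscle and all 5 smooth muscle markers also lay below 0 (medians -0.14, -0.07 and -0.08). Of 3 thymocyte markers 1 lay below 0, and of 4 B cell markers 0. The summed intensity of the neutrophil markers lay between 148 and 1454 units at 24 °C and between 133 and 350 at 30 °C, that of the adipocyte markers between 18165 and 48380 and between 15550 and 39267, and that of the fibroblast markers between 49986 and 158920 and between 47839 and 180962. The part of these cells in the results on temperature was not tested.

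**Figure D3:**
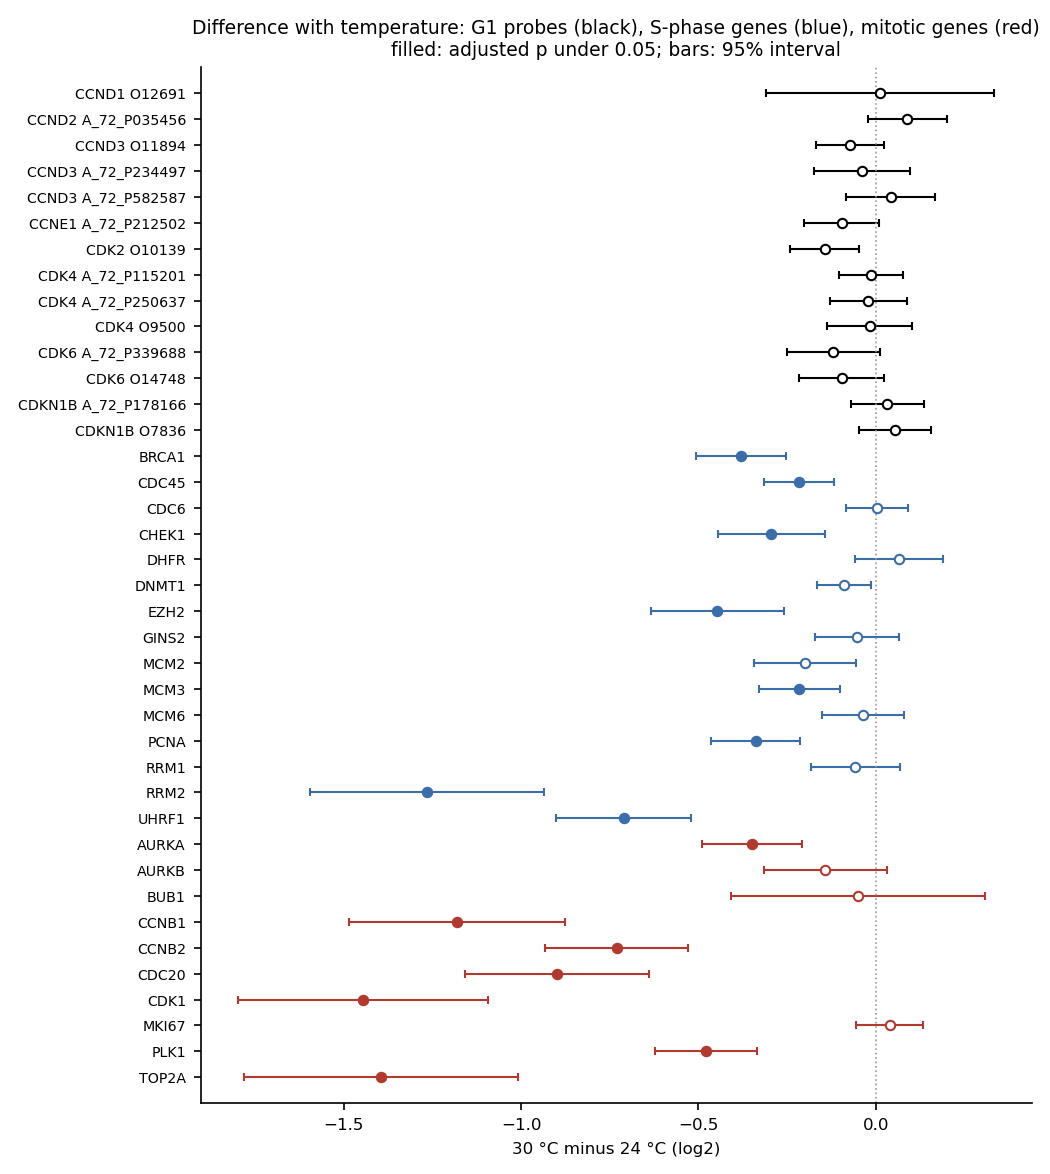
Difference between 30 and 24 °C on the log2 scale (horizontal axis) for the 14 G1 probes (black), the 15 tested S phase genes (blue) and the 10 mitotic genes (red), each row 1 probe. Points are limma estimates with breed in the model, bars are 95% intervals and filled points have an adjusted p under 0.05. The 14 black points lie between -0.14 and 0.09, and CDK1, the lowest of the red points, at -1.45.

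The second question was how the breeds compare. CCND2, CCND3 and CDKN1B were higher in LW than in CR, each on 1 probe, and no kinase was called. In limma 3 of the 14 probes passed, all higher in LW, against 12.9% of all tested probes in either direction and 7.17% higher. The share of 3 in 14 rests on few probes, and nothing particular to these genes is read from it. Of the 14 differences 8 were above 0, and 6 had an unadjusted p under 0.05, as did 26.2% of all tested probes.

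CCND2 read 13.23, 13.50 and 13.69 in CR and 13.47, 13.74 and 13.85 in LW at 24 °C (lowest, median and highest of 6 pigs), and 13.40, 13.63 and 13.84 in CR and 13.56, 13.78 and 14.10 in LW at 30 °C. The ranges overlapped at both temperatures, and 11 of 12 LW pigs lay above the CR mean. The difference was 0.20 ± 0.07 (SE, adjusted p = 0.0384 in limma). Within slides 1 to 4 it was -0.05, 0.36, 0.14 and 0.23, so slide 1 went the other way.

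CCND3 on probe A_72_P234497 read 8.77, 9.18 and 9.24 in CR and 9.17, 9.41 and 9.56 in LW at 24 °C, and 8.88, 9.15 and 9.55 in CR and 9.17, 9.41 and 9.65 in LW at 30 °C. All 12 LW pigs lay above the CR mean, although the ranges overlapped. The difference was 0.24 ± 0.08 (SE, adjusted p = 0.0432 in limma), and between 0.17 and 0.40 within slides 1 to 4. The copy of this probe outside the rule gave 0.24 ± 0.07 (SE) and was called as well, with an adjusted p of 0.0296.

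Of the 3 named CCND3 probes, only this one was called. Probe A_72_P582587 gave 0.17 ± 0.08 (SE, adjusted p = 0.145 in limma), in the same direction, and the main probe O11894 gave 0.01 ± 0.06 (SE, adjusted p = 0.972 in limma). On O11894 the LW pigs read 13.23, 13.52 and 13.70 and the CR pigs 13.33, 13.48 and 13.71, and 6 of 12 LW pigs lay above the CR mean. A probe of another name that shares 52 letters with O11894 gave -0.003 ± 0.06 (SE). A sequence difference between the breeds under a probe was not tested.

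CDKN1B on probe O7836 read 11.01, 11.17 and 11.25 in CR and 11.16, 11.40 and 11.44 in LW at 24 °C, and 11.11, 11.24 and 11.43 in CR and 11.02, 11.44 and 11.69 in LW at 30 °C. Of the 12 LW pigs, 10 lay above the CR mean and 2 below it. The difference was 0.18 ± 0.06 (SE, adjusted p = 0.0482 in limma), and between 0.13 and 0.32 within slides 1 to 4. Probe A_72_P178166, 1 letter apart, gave 0.15 ± 0.06 (SE) and missed the threshold with an adjusted p of 0.106, while its exact copy gave 0.17 ± 0.06 (SE) and passed with 0.048.

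These calls were narrow. Leaving out 1 pig at a time ended the call of CCND2 in 12 of 36 cases, that of CCND3 in 13 and that of CDKN1B in 22, while the differences kept their sign, at 0.18 to 0.23, 0.21 to 0.28 and 0.15 to 0.21. With processed intensities scaled to the 75th percentile of each array, none of the 14 probes was called.

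CCNE1 and CDK2 lay lower in LW without passing the test. CCNE1 gave -0.15 ± 0.06 (SE, adjusted p = 0.124 in limma), with 11 of 12 LW pigs below the CR mean, and the other cyclin E1 probe gave -0.19 ± 0.09 (SE, adjusted p = 0.15 in limma). CDK2 gave -0.11 ± 0.06 (SE, adjusted p = 0.247 in limma), and the 6 further CDK2 probes ran from -0.11 to 0.17. CDK4 (-0.05 ± 0.05 SE), CDK6 (-0.02 ± 0.08 SE) and CCND1 (0.11 ± 0.19 SE) were not called either.

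Of the 30 tested genes of the wider G1 to S list, 0 were higher and 3 lower in LW, against 7.39% and 6.04% of the main probes of named genes. They were CDKN2C, an inhibitor of CDK4 and CDK6 (-0.36 ± 0.09 SE), FBXO31 (-0.19 ± 0.06 SE) and AMBRA1 (-0.15 ± 0.04 SE), the last 2 being parts of ubiquitin ligases that act on D cyclins. CDKN1A gave 0.21 ± 0.08 (SE, adjusted p = 0.0814 in limma), RBL2 0.17 ± 0.07, RBL1 0.07 ± 0.06, CDKN1C -0.10 ± 0.06, E2F1 -0.08 ± 0.06, SKP2 -0.02 ± 0.07 and CKS1B -0.11 ± 0.05. Besides the main probes, 2 of 4 CKS1B probes and 1 of 2 FBXW7 probes were called lower, and 1 of 4 FOXO1 probes was called higher. Of the 3 CDKN1A probes 1 was called and 1 lay below 0. In the S phase list 1 of 15 was higher (GINS2, 0.23) and 1 lower (CDC45, -0.33), and in the mitotic list 0 of 10 were called.

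Markers of other cell types also differed between LW and CR. Of 5 tested endothelial markers 3 were higher in LW (KDR, PECAM1 and CDH5), whereas VWF read -0.12, with all 3 of its probes below 0. KDR (0.73) was called on 1 of its 3 probes. Of 5 smooth muscle and pericyte markers 3 were higher (ACTA2, MYH11 and TAGLN), and of 6 adipocyte markers 4 were lower (ADIPOQ, PLIN1, LIPE and CIDEC). Among the main probes of all named genes 7.39% were called higher and 6.04% lower. The myeloid gene LYZ was lower, and the thyroid factor NKX2-1 was higher. The skeletal muscle gene ACTA1 was higher on its main probe (0.22), but 8 of its 17 probes lay below 0 and 6 were called. In the skeletal muscle list 5 of 6 genes lay below 0, at a median of -0.11. No gene of the C cell, fibroblast, T cell, thymocyte, B cell, neutrophil or red cell lists was called by its main probe, and the parathyroid genes PTH and GCM2 were not tested. The summed intensity of the endothelial markers ran from 22531 to 33529 units in CR and from 27684 to 38661 in LW, that of the smooth muscle markers from 26333 to 38545 and from 32269 to 44057, and that of the adipocyte markers from 15550 to 44455 and from 16647 to 33343. The part of these cells in the cyclin and CDKN1B differences was not tested.

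**Figure D4:**
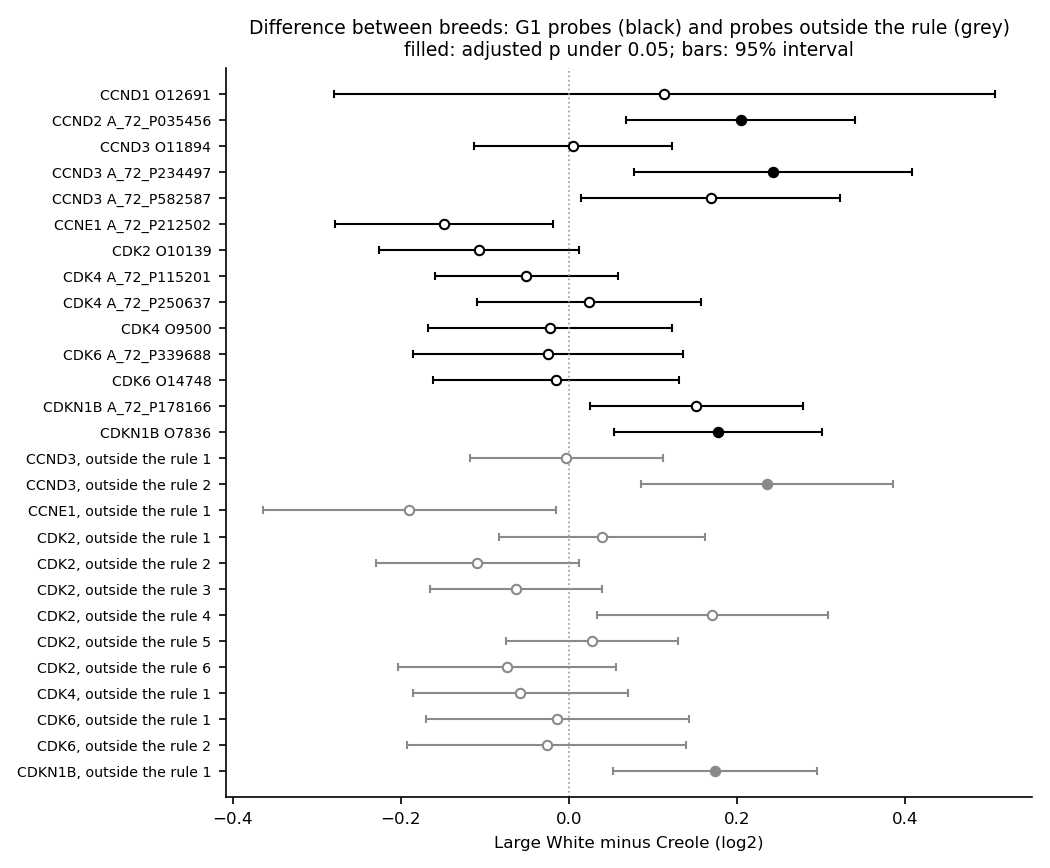
Difference between Large White and Creole pigs on the log2 scale (horizontal axis) for the 14 G1 probes (black) and the 13 probes outside the rule (grey), each row 1 probe. Points are limma estimates with temperature in the model, bars are 95% intervals and filled points have an adjusted p under 0.05. The filled black points are CCND2 at 0.20, CCND3 at 0.24 and CDKN1B at 0.18, and the filled grey points are the copies of the CCND3 and CDKN1B probes.

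On the 3 probes called between LW and CR, the F1 mean lay nearer to that of LW. The distance of F1 from the mean of both breeds was not called on any of them. The mean of CCND2 over 12 pigs was 13.55 ± 0.18 (SD) for CR, 13.71 ± 0.16 for F1 and 13.75 ± 0.16 for LW. CCND3 on A_72_P234497 averaged 9.15 ± 0.22, 9.33 ± 0.21 and 9.40 ± 0.17, and CDKN1B on O7836 averaged 11.20 ± 0.11, 11.31 ± 0.15 and 11.38 ± 0.18 in the same order. None of the 14 probes was called by limma for F1 against CR (3.38% of all tested probes), for F1 against LW (1.99%) or for F1 against the mean of both (0.439%), and 2, 0 and 0 of the 14 had an unadjusted p under 0.05, against 17.2%, 13.4% and 10.4%. These comparisons share pigs with that of LW and CR.

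For each main probe the named genes whose signal was most like it were found over the 36 arrays, by Pearson's r after the group means were taken away, among 9628 genes. CCND1 was most like CYTL1 (0.95), TEX261 (0.94) and MED23 (0.92), above the best match of each other member. The next were CCND3 with RIPOR3 (0.81), PLOD1 (0.70) and RNF220 (0.68), CDK4 with PRKCSH (0.74), CPT1B (0.73) and CDIP1 (0.73), and CDKN1B with COG5 (0.73), ARID5B (0.70) and HBP1 (0.70). CCNE1 was most like MTCP1 (0.73), SWI5 (0.67) and SNX6 (0.64), and CCND2 most like ARRDC2 (0.72), LRPPRC (0.71) and SNAPC1 (0.68). CDK6 was most like PRRC2B (0.71), HAUS8 (0.69) and VAMP2 (0.69), and CDK2 most like JDP2 (0.67), TULP3 (0.66) and AP2M1 (0.64). Arrays of a slide share their processing, and these values describe likeness of signal alone.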

How the data were processed

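Cy3-labelled total RNA of 36 thyroid glands was hybridised to 1-colour Agilent porcine arrays and read, per the labels, with Agilent Feature Extraction 10.10.1.1. The deposited scanner files hold unscaled intensity values per spot. The authors quantile-normalized the median pixel intensity without background subtraction and deposited log2 values for 46097 probes. The same steps were repeated here from the scanner files. The 1319 control spots of an array were left out, 106 non-uniform spots were set to missing, and duplicate spots were averaged. Tested probes had a well-above-background call in 5 or 6 pigs of some group of 6. The remade and deposited log2 values of the member probes differed by at most 0.013.

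limma 3.58.1 in R 4.3.3 was fitted to all 36 arrays, with terms for breed and temperature, or with the 6 group means for changes within breeds and interactions. P-values were adjusted by Benjamini-Hochberg over all tested probes, and 0.05 was the threshold. Pen, day of slaughter and parents were not available as terms. Arrays have no read depth. Alternatives were other scalings, backgrounds, filters, blocks, weights, the deposited log2 values and leaving out each pig. For random blocks the correlation was estimated on every 10th probe. Scripts were tested on simulated data.

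The members and the gene lists were chosen with earlier results of these data known. All members were named, with 1 main probe per gene, the tested probe with the highest mean. From each list the called genes with the largest changes were named, at most 8, plus CDKN1A, CDKN1C, CDKN2C, RBL1, RBL2, E2F1, SKP2 and CKS1B. The marker lists covered thyrocytes, C cells, parathyroid, fibroblasts, endothelium, smooth muscle, T cells, thymocytes, B cells, myeloid cells, neutrophils, red cells, skeletal muscle and adipocytes. Names were updated with a list for Sscrofa11.1. The files give no probe positions in the genome, so none is reported.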

Additional observations from a re-analysis of the deposited data

Results flagged for a closer look

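In 4 of the 84 sets of 6 pigs (14 probes in 6 groups) the pig at the top or bottom of its set stood apart, with a gap to its neighbour, as a share of the whole range, above Dixon's 95% critical value. Chance alone gives about 1 in 20 sets, or 4.2 here. F1 replicate 4 at 30 °C accounted for 3 of the 4. Its CCND1 signal was 17.16, against 15.34 to 15.89 in the other 5 pigs (gap 0.698 of the range). On the same array CDK4 was low, at 8.78 on A_72_P250637 against 9.22 to 9.35 (gap 0.787) and at 8.67 on O9500 against 9.01 to 9.21 (gap 0.628). The other was the CCND2 signal of LW replicate 5 at 24 °C, at 13.47 against 13.72 to 13.85 (gap 0.656). No gap between breeds in the effect of temperature passed the test in any of the 14 probes.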

How the results depend on the processing

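The 0 calls with temperature, for F1 and for the interaction stood under all alternatives that could be run. The count of 3 called probes for LW against CR was 0 with processed intensity scaled to the 75th percentile, 1 with median intensity scaled so, 1 with no filter on dim probes, and 0 to 3 when 1 pig was left out (3 for 10 pigs, 2 for 12, 1 for 8 and 0 for 6), and the cause was not tested. Array quality weights ended the CDKN1B O7836 call as well (adjusted p = 0.0551 in limma), leaving 2. The CCND2 call was lost without CR replicate 3, 4 or 6 at 24 °C, CR 5 or 6 at 30 °C, LW 1, 2, 3, 4 or 6 at 24 °C, or LW 2 or 3 at 30 °C. That of CCND3 A_72_P234497 was lost without CR 1, 5 or 6 or LW 1, 2 or 3 at 24 °C, or CR 2, 5 or 6 or LW 1, 2, 3 or 5 at 30 °C. That of CDKN1B O7836 was lost without CR 1, 2, 3, 4 or 6, LW 1, 2, 3 or 4 or F1 2, 4 or 6 at 24 °C, or CR 1, 2, 4 or 6, LW 1, 3, 4, 5 or 6 or F1 3 at 30 °C, while CDKN1B A_72_P178166 was called only without LW 2 at 30 °C. Signs turned for values near 0. For LW against CR, CCND3 O11894 was -0.042 (processed, 75th percentile), -0.025 (median, 75th percentile), -0.0023 (array weights) and -0.013 to 0.029 (1 pig left out). The median over the 3 CCND3 probes gave 0.24 (adjusted p = 0.0393 in limma). On every array that median is probe A_72_P234497 itself, because the 3 probes differ in brightness without overlap. It is therefore no separate reading of CCND3. CDK4 was 0.024 as the median over its probes, CDK6 -0.053 to 0.0094 with 1 pig left out, and CCND2 -0.050 within slide 1. With temperature, CCND1 was -0.024 with array weights and -0.066 to 0.054 with 1 pig left out, and CDK4 -0.028 to 0.0041. Over the settings other than leaving out a pig, 6 to 8 S phase genes, 5 to 7 mitotic genes and, of the wider G1 to S list, 0 or 1 gene of the E2F group, 0 or 1 of the activators and 1 or 2 of the turnover group were lower at 30 °C. Slide 5 could not give values within a slide. No paired analysis was possible because each pig was read at 1 temperature and the labels name no litter. The labels give no replicate numbers either, and those used here follow the order of the samples in each group. CCNE1 is dim, and its difference ran from -0.06 to -0.21 with temperature and from -0.06 to -0.29 between LW and CR over the settings.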
